A study of Sus scrofa with 13 samples.

Results

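This account covers the genes of cardiac ion channels, gap junction connexins and the sodium pump in infarcted pig hearts. Members were all probe sets (the groups of array probes that together measure a transcript) whose platform gene symbol began with KCN, CACN, GJA, GJC, ATP1A or ATP1B, or with SCN or HCN followed by a digit. The rule found 52 of 23999 porcine probe sets, which stood for 33 genes. For a gene with several probe sets, the one with the highest mean log2 intensity over the 13 arrays led. The animals were female Sinclair miniswine whose hearts had been infarcted, at an age of 3 months and a weight of about 10 kg, by permanent ligature of diagonal coronary branches of the left anterior descending artery. One group of 7 then received 50000000 stem cells, which the labels call MPCs, divided equally among 5 sites in the border zone of the infarct. The other group of 6 received saline alone at like sites, in the volume of 2 ml that also carried the cells. Myocardial drill biopsies were taken 4 months later, each giving 1 array, and the place of each biopsy relative to the scar is not given per animal.

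The beat of the heart rests on ion channels that open and close in sequence. Sodium and calcium channels carry the inward currents of the action potential, several families of potassium channels end it and hold the resting potential, and the sodium pump restores the ion gradients. Connexins form the gap junctions through which current passes from cell to cell. In working ventricular muscle the main connexin is that encoded by GJA1, whereas those encoded by GJA4 and GJA5 are known from the endothelium of arteries, and GJA5 also from the atria and the conduction system. Infarcted hearts are known for altered repolarisation and for redistributed gap junctions at the border of the scar.

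The deposited values had already been normalized between arrays, which by itself brings their scales together. Their median intensity lay between 13.5 and 14.0 per array, and pairwise correlations were 0.936 to 0.986. Cardiomyocyte markers were high in both groups, and their mean log2 intensity lay between 13.8 and 14.1 in stem cell hearts and between 13.7 and 14.0 in saline hearts over 11 measured genes such as MYH7 and TNNT2. EF1A has control probe sets at its 3' and 5' ends, and the log2 ratio between them, which rises as RNA degrades, was 0.815 ± 0.11 in stem cell hearts (SD, n = 7) and 0.947 ± 0.098 in saline hearts (SD, n = 6; exact permutation p of 0.046; 0.184 after adjustment over 4 measures of the arrays). The like ratio of actin was 2.89 ± 1.1 in stem cell hearts and 3.13 ± 0.74 in saline hearts (SD, exact permutation p of 0.664). That of GAPDH was 1.51 ± 0.19 and 1.61 ± 0.11 (SD, exact permutation p of 0.240). The labels give no batch. Nothing in them pairs animals of the 2 groups. In bulk tissue, fewer cells of a type and less RNA per cell cannot be told apart.

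Coverage of the channel classes was uneven. The 33 genes included 5 inward rectifier potassium channels, 6 voltage-gated potassium channels, 7 accessory subunits of potassium channels and 4 genes of calcium-activated potassium channels. The rest were 5 calcium channel subunits, 3 connexins and 3 genes classed by symbol as subunits of the sodium pump. The rule found 0 probe sets with a symbol of the SCN, HCN, GJC or ATP1A kind, and 0 of a pore-forming calcium channel subunit (CACNA1). The main sodium channel, the pacemaker channels, the L-type calcium channel pore and the catalytic subunit of the pump were therefore not analysed here. The RefSeq gene table for the pig assembly Sscrofa11.1 lists 153 genes with the same prefixes, the 33 among them, while 13732 probe sets of the array had no symbol in the annotation used.

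Most channel genes gave little signal. A probe set entered the tests if its mean log2 intensity exceeded 3.36, the 40th percentile, and 13 of the 33 genes (39.4%) passed, against 76.8% of all 6765 genes with a symbol. Another 12 genes lay between this level and 2.58, the highest mean of 17 tag controls without a porcine target, and 8 lay at or under 2.58. A signal at that height cannot be told from background, and it does not show that a transcript is absent, since probe sets differ in how well they bind. For the same reason levels of different probe sets are given as signals and not ranked as amounts of transcript.

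The genes below the filter included several that repolarise ventricular muscle. KCNQ1, the pore of the slow delayed rectifier, had a mean log2 intensity of 3.17 in its leading probe set and 2.56 in the lowest of its 4. KCNH2, the pore of the rapid delayed rectifier, was at 2.82, and KCNJ2, an inward rectifier that holds the resting potential, was at 2.87. KCNJ3, which pairs with KCNJ5 in the acetylcholine-activated channel, was at 2.72. The accessory subunits KCNE2 and KCNE4 were at 2.46 and 3.25, the pore of the large-conductance calcium-activated channel KCNMA1 at 2.93, and CACNB2, the main beta subunit of the cardiac L-type channel, at 2.45. The others were KCNJ1, KCNA2, KCNA6, KCNB2, KCNF1, KCNIP1, KCNIP4, KCNN3, KCNN4, CACNB3, CACNB4 and CACNG3, and all 20 genes lay between 2.16 and 3.26. The 2 genes nearest to the filter from below were KCNN3 at 3.26 and KCNE4 at 3.25, and the 2 nearest from above were KCNMB1 at 3.48 and ATP1B4 at 3.53.

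**Figure D1:**
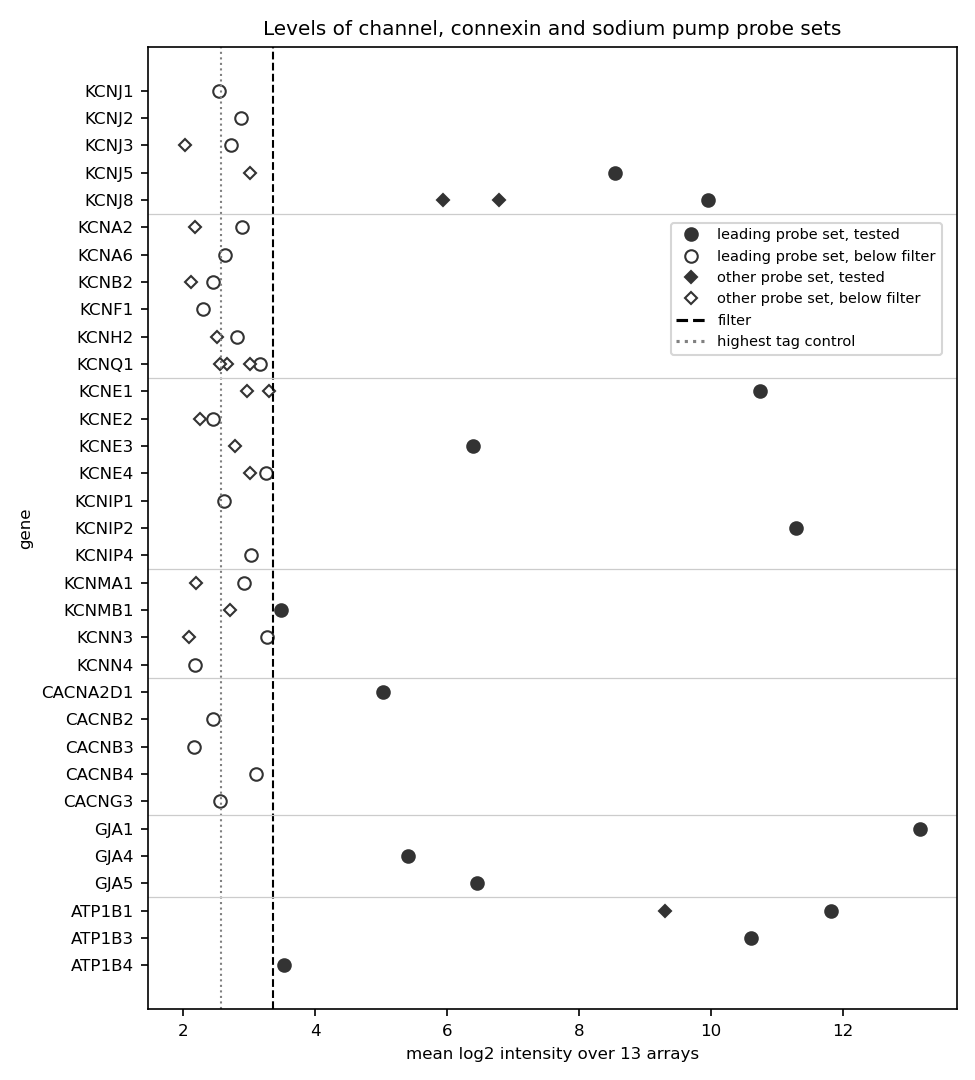
Mean log2 intensity over the 13 arrays (horizontal axis) of every channel, connexin and sodium pump probe set, by gene and class; circles are leading probe sets, diamonds the others, filled where tested. The 3 connexins and the 3 genes classed as pump subunits lie right of the filter at 3.36 (dashed). All 6 voltage-gated potassium channels lie left of it.

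Probe sets of a single gene often disagreed in level. KCNE1, the small subunit that assembles with KCNQ1, had a mean log2 intensity of 10.74 in its leading probe set but 3.31 and 2.97 in its other 2. KCNJ5 was at 8.54 in the leading probe set and 3.01 in the other, and KCNE3 at 6.40 and 2.79. KCNJ8 was measured above the filter by all 3 of its probe sets, at 9.95, 6.78 and 5.93, and ATP1B1 by both, at 11.82 and 9.30. The dim probe sets of KCNE1, KCNJ5 and KCNE3 lay under the filter while the leading ones lay well above it.

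The groups were compared with limma on the log2 scale over all 14399 probe sets above the filter, with differences as stem cells minus saline. No channel, connexin or pump gene passed an adjusted p of 0.05 (0 of 13, and 0.0% of all probe sets; the smallest adjusted p among the 13 was 0.423). At an unadjusted p under 0.05, 1 of the 13 passed, the connexin GJA4, against 10.5% of all probe sets tested. In 0 of the 13 did the groups fail to overlap, against 0.278% of all probe sets. Differences were negative in 9 of 13 genes, with a median of -0.10, while 47.2% of all probe sets were negative, with a median of 0.017. The median SE was 0.181 for these genes and 0.180 for all probe sets, and for 5 of 13 genes the 95% interval lay within 0.5 log2 units to either side of 0. These 5 were KCNJ8, KCNIP2, GJA1, KCNMB1 and ATP1B4. The mean signals of KCNMB1 and ATP1B4, 3.48 and 3.53, lay near the filter, which limits what their intervals can show.

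Among connexins, GJA4 was lower after stem cells at an unadjusted p under 0.05 but not after adjustment, and GJA1, the ventricular connexin, and GJA5 reached neither. The log2 intensity of GJA4 in stem cell hearts was 4.60 at the lowest, 5.30 at the median and 5.61 at the highest. In saline hearts it was 5.38 at the lowest, 5.64 at the median and 6.19 at the highest. All 7 stem cell hearts lay below the saline mean and 6 of 7 lay below every saline heart, so that the groups overlapped through 1 animal, stem cells replicate 1 at 5.61.

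GJA4 averaged 5.17 ± 0.33 after stem cells (SD, n = 7) and 5.67 ± 0.28 after saline (SD, n = 6). The log2 difference was -0.50 ± 0.18 (SE, limma), a fold of 0.708, with an unadjusted p of 0.015 and an adjusted p of 0.423. An exact permutation test of this gene alone gave a two-sided p of 0.007. The difference was -0.39 without saline replicate 5, whose value of 6.19 stood apart from the other saline hearts, and -0.40 without stem cells replicate 6. It was -0.38 with the EF1A ratio as a covariate (unadjusted p of 0.105).

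Cells of the vessel wall also express GJA4, and their markers are therefore given beside it. Endothelial markers averaged a log2 intensity of 8.30 to 9.32 in stem cell hearts and 8.92 to 9.42 in saline hearts. Of the 6 measured, 4 were lower and 2 higher after stem cells, with ENG at -0.65 ± 0.29 and TEK at 0.38 ± 0.17 (SE), and KDR and TIE1 lay below the filter. PECAM1 and CDH5, which define endothelium, were at 0.070 ± 0.19 and -0.11 ± 0.16. Smooth muscle and pericyte markers ranged over 9.11 to 10.64 in stem cell hearts and 9.98 to 11.05 in saline hearts, with 5 of 7 lower. MYL9, a myosin light chain of smooth muscle, was at -0.88 ± 0.22, and PDGFRB, also lower, at -0.17 ± 0.29. ACTA2 and RGS5, the 2 higher ones, were at 0.077 ± 0.30 and 0.052 ± 0.13. The part of these cells in the GJA4 difference was not tested.

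GJA1 was at 12.89 to 13.55 in stem cell hearts (median 13.30) and at 12.74 to 13.78 in saline hearts (median 13.07). The highest of all 13 hearts was saline replicate 5, while the other 5 saline hearts lay at or under 13.12 and 2 of them, at 12.78 and 12.74, lay below every stem cell heart. The log2 difference was 0.14 ± 0.15 (SE; 95% interval -0.19 to 0.46, unadjusted p of 0.386). Without saline replicate 5 it was 0.28, with an unadjusted p of 0.0375, and without saline replicate 4 it was 0.067.

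GJA5 varied more between animals than 96.5% of all probe sets tested. It ranged over 5.56 to 7.24 in stem cell hearts (median 6.18) and over 5.15 to 7.95 in saline hearts (median 6.78), and the saline range enclosed that of the stem cell hearts. The difference was -0.31 ± 0.43 (SE), with a 95% interval of -1.23 to 0.61. It moved between -0.61 without saline replicate 6 and -0.048 without saline replicate 2. With the EF1A ratio as a covariate the difference was -1.13 (unadjusted p of 0.0109, adjusted p of 0.557).

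**Figure D2:**
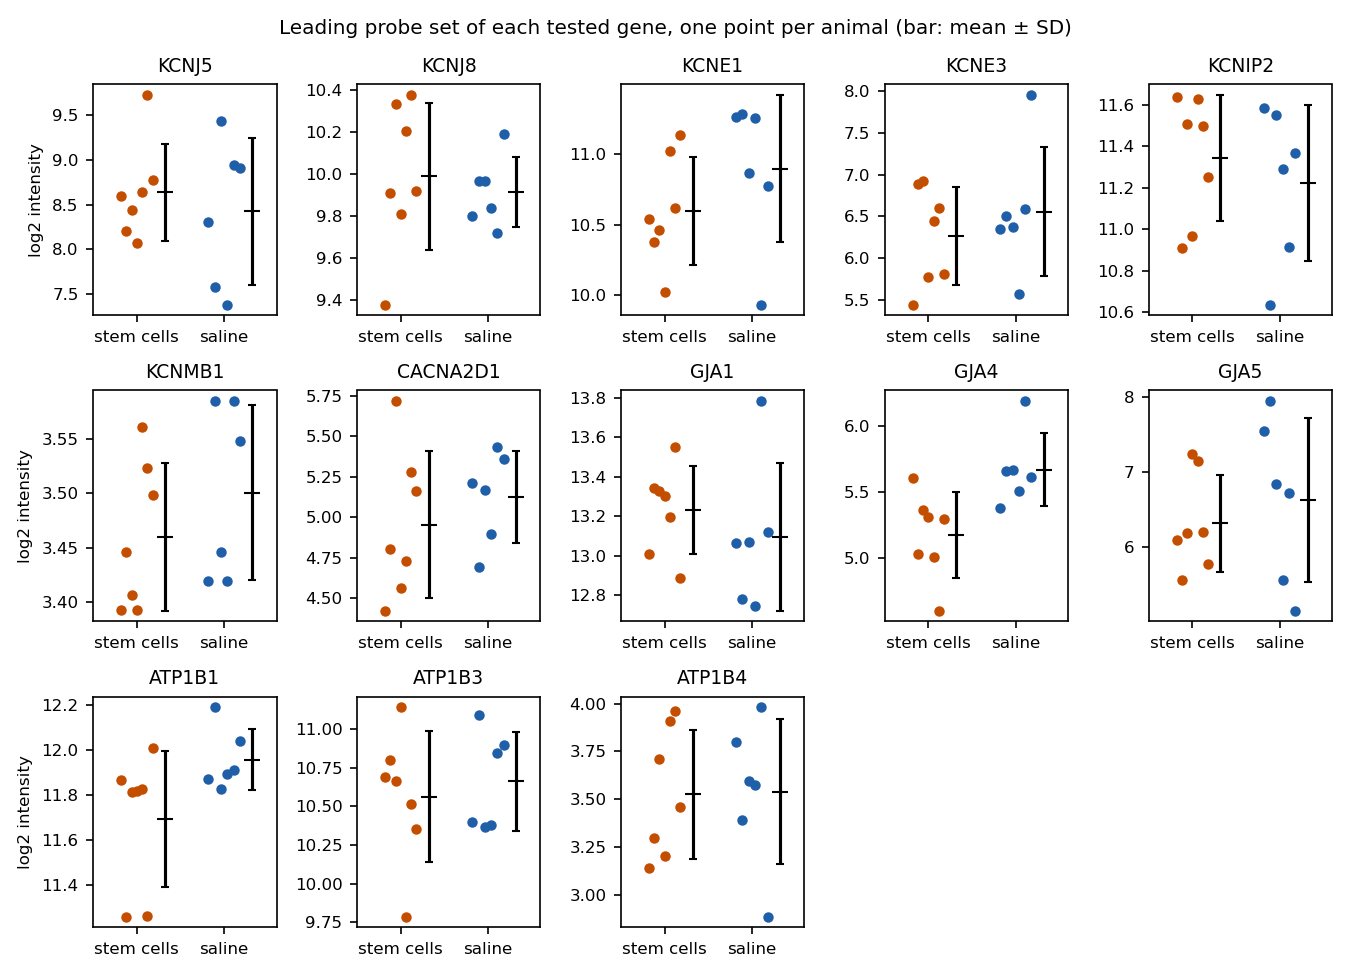
Log2 intensity (vertical axes, each with its own range) of the leading probe set of the 13 tested genes, 1 point per animal, stem cells (n = 7) left and saline (n = 6) right, with mean ± SD. In GJA4 6 of 7 stem cell hearts lie below all saline hearts, in ATP1B1 4 of 7 do, and groups overlap in all panels.

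Both measured pore-forming inward rectifiers had small positive differences in their leading probe sets, and each was near 0 without stem cells replicate 6. KCNJ8 encodes the pore of a potassium channel that closes with ATP and is best known from vascular smooth muscle and pericytes. Its leading probe set was at 9.38 to 10.38 in stem cell hearts (median 9.92) and at 9.72 to 10.19 in saline hearts (median 9.90). Stem cell hearts lay on both sides of the saline range, 1 below it and 3 above it. The difference was 0.076 ± 0.16 (SE; 95% interval -0.27 to 0.42), and the other 2 probe sets gave -0.13 ± 0.18 and 0.11 ± 0.24. With 1 animal left out the difference lay between 0.011 (stem cells replicate 6) and 0.18 (stem cells replicate 1). Over the 13 animals they correlated with the leading one at a Pearson r of 0.78 and 0.64 on the same arrays.

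KCNJ5, a subunit of the acetylcholine-activated channel of atrial and pacemaker cells, was at 8.08 to 9.72 in stem cell hearts (median 8.60) and at 7.38 to 9.43 in saline hearts (median 8.61). Its medians nearly coincided, and the difference was 0.21 ± 0.34 (SE; 95% interval -0.51 to 0.93). The highest value was that of stem cells replicate 6, and without that animal the difference was 0.030. Without a saline heart it lay between 0.0023 (replicate 4) and 0.41 (replicate 3). It varied more between animals of a group than 92.2% of probe sets.

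Of the accessory subunits of potassium channels, 2 were lower and 1 was higher, and 0 passed. KCNE1, which slows the opening of KCNQ1 channels, was at 10.02 to 11.14 in stem cell hearts (median 10.54) and at 9.93 to 11.28 in saline hearts (median 11.06). The lowest value of all was that of saline replicate 5, and 5 of 7 stem cell hearts lay below the saline mean. The difference was -0.30 ± 0.23 (SE; 95% interval -0.79 to 0.19, unadjusted p of 0.21). Without saline replicate 5 it was -0.49, with an unadjusted p of 0.0195, and without stem cells replicate 2 it was -0.26. Of 24 alternatives, 1 gave an unadjusted p under 0.05 for KCNE1, and the lowest adjusted p was 0.430.

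KCNE3, a related subunit that modifies several voltage-gated channels, was at 5.44 to 6.92 in stem cell hearts (median 6.44) and at 5.57 to 7.95 in saline hearts (median 6.44). The medians again coincided, and the mean of the saline group was raised by replicate 6 at 7.95. The difference was -0.29 ± 0.34 (SE), -0.011 without that animal and -0.49 without saline replicate 4. KCNIP2, the calcium-binding partner of the channels that carry the transient outward current, was at 10.91 to 11.63 in stem cell hearts (median 11.50) and at 10.63 to 11.58 in saline hearts (median 11.33). The difference was 0.12 ± 0.18 (SE; 95% interval -0.26 to 0.50). Without saline replicate 2, the lowest of the 13 hearts at 10.63, it was 0.00072, and without stem cells replicate 2 it was 0.19.

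The accessory subunit of calcium-activated channels, KCNMB1, and that of calcium channels, CACNA2D1, had low signals and small differences. KCNMB1, a subunit of the large-conductance channel of smooth muscle, was at 3.39 to 3.56 in stem cell hearts and at 3.42 to 3.58 in saline hearts. Its spread between animals of a group was smaller than that of 99.9% of probe sets, and the difference was -0.041 ± 0.067 (SE). CACNA2D1, which brings L-type channels to the cell surface, was at 4.42 to 5.72 in stem cell hearts (median 4.80) and at 4.69 to 5.44 in saline hearts (median 5.19). Of the stem cell hearts 2 lay below and 1 lay above all saline hearts, and the difference was -0.17 ± 0.21 (SE; 95% interval -0.62 to 0.27). Leaving out stem cells replicate 3 moved it to -0.30, and leaving out replicate 1 of that group moved it to -0.085.

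The beta subunits of the sodium pump carry the catalytic subunit to the membrane. The 3 genes classed as such had negative mean differences, and 0 of them reached an unadjusted p under 0.05, against 10.5% of all probe sets tested. ATP1B1, the main beta subunit of heart muscle, was at 11.26 to 12.01 in stem cell hearts (median 11.82) and at 11.83 to 12.19 in saline hearts (median 11.90). Of the stem cell hearts 4 lay below every saline heart, 2 of them by little, while replicates 2 and 6 stood apart at 11.26 each. The difference was -0.26 ± 0.14 (SE; 95% interval -0.55 to 0.025), with an unadjusted p of 0.0704 and an adjusted p of 0.508. The second probe set gave -0.36 ± 0.23 (unadjusted p of 0.143). It was not lowest in the same animals, and its 13 values correlated with those of the first at a Pearson r of 0.44.

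ATP1B3, a more widely expressed beta subunit, was at 9.78 to 11.14 in stem cell hearts (median 10.66) and at 10.37 to 11.09 in saline hearts (median 10.62), with a difference of -0.10 ± 0.20 (SE). ATP1B4, which in placental mammals is a muscle protein outside the pump, was at 3.14 to 3.96 in stem cell hearts and at 2.88 to 3.98 in saline hearts, with a difference of -0.012 ± 0.18 (SE).

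**Figure D3:**
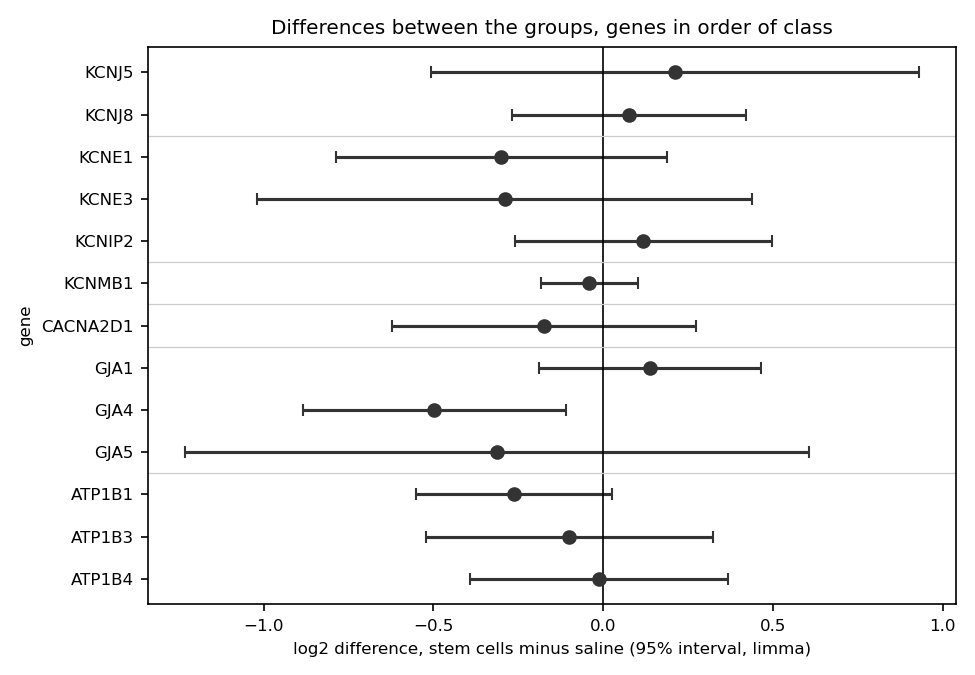
Log2 difference between stem cell and saline hearts (horizontal axis) with its 95% interval (limma) for the 13 tested genes, in order of class. The interval of GJA4, from -0.88 to -0.11, is the only one of the 13 that leaves out 0, before adjustment over 14399 probe sets.

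Genes below the filter added little. Tested without a filter, the 20 genes had differences from -0.21 to 0.16. Of all 33 genes 24 were negative, against 50.5% of 23999 probe sets. All 6 voltage-gated potassium channels were negative in their leading probe sets, from -0.12 to -0.045 with a median of -0.090. Their signals lay below the filter, 2 of them at or under the highest tag control. Another probe set of KCNA2 gave 0.017 and another of KCNQ1 gave 0.018, while the others of this class were negative. An unadjusted p under 0.05 was reached by GJA4 and 2 of the 20 genes, KCNN4 at -0.16 (p of 0.0122) and CACNB4 at -0.21 (p of 0.0247), against 8.76% of all probe sets, and 0 of 33 passed after adjustment (0.0% of all). KCNN4 and CACNB4 were named after their values were seen. The mean signal of KCNN4, 2.18, lay under the highest tag control, and that of CACNB4, 3.11, lay between that control and the filter.

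Values of different members were also set against each other over the 13 animals, for 78 pairs. The smallest p belonged to KCNE1 and GJA1, which ran opposite to each other (Pearson r = -0.81, permutation p of 0.00075; Spearman rho = -0.80, permutation p of 0.00194). After adjustment over the 78 pairs the p were 0.0585 and 0.151, so that the relation did not pass. Without the 2 animals farthest from the median of KCNE1, r was -0.74. Within groups r was -0.51 over the 7 stem cell hearts and -0.95 over the 6 saline hearts, where replicate 5 was lowest in KCNE1 and highest in GJA1. In 0 of 78 pairs did either coefficient pass after adjustment.

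Members were further set against the mean of cardiomyocyte, fibroblast and scar, smooth muscle and pericyte, and endothelial markers and against the EF1A ratio, for 65 relations. In stem cells replicates 2 and 6 the smooth muscle and pericyte markers averaged 9.33 and 9.11, and ATP1B1 was lowest in the same 2 hearts. Over all 13 hearts ATP1B1 correlated with these markers at a Pearson r of 0.91 (permutation p of 0.00025, 0.0162 after adjustment over the 65 relations), which was the only relation of the 65 to pass, while Spearman's rho was 0.60 (permutation p of 0.0336, adjusted p of 0.651) and did not. Within groups r was 0.89 over the 7 stem cell hearts, which hold the 2 that stand apart, and 0.96 over the 6 saline hearts. Over the other 11 hearts Pearson's r was 0.69 (permutation p of 0.0202) and Spearman's rho 0.34 (permutation p of 0.304) for the leading probe set, and 0.61 (permutation p of 0.047) and 0.74 (permutation p of 0.012) for the second one. Endothelial markers were also lowest in stem cells replicates 2 and 6, at 8.30 and 8.51. ATP1B1 correlated with endothelial markers at a Pearson r of 0.81 (permutation p of 0.00397, 0.129 after adjustment). Spearman's rho was 0.29 (permutation p of 0.330), and r was 0.17 without the 2 farthest animals. GJA5 correlated with endothelial markers (Pearson r = 0.58, permutation p of 0.0371; Spearman rho = 0.66, permutation p of 0.0161). Its r was 0.62 without the 2 farthest animals, 0.65 within stem cell hearts and 0.66 within saline hearts. GJA4 did so at a Pearson r of 0.57 (permutation p of 0.0452; Spearman rho = 0.43, permutation p of 0.139), which came to 0.088 without the 2 farthest animals, so that this relation rests on them. With smooth muscle and pericyte markers the r of GJA4 was 0.61 (permutation p of 0.0277, adjusted p of 0.258) and 0.087 without the 2 farthest animals. GJA4 also ran with the EF1A ratio (Pearson r = 0.56, permutation p of 0.0435, adjusted p of 0.294). Spearman's rho was 0.62 (permutation p of 0.0289), and r was 0.50 without the 2 farthest animals. Within groups r was 0.25 in stem cell hearts and 0.37 in saline hearts. GJA1 followed cardiomyocyte markers (Pearson r = 0.63, permutation p of 0.0212; Spearman rho = 0.43, permutation p of 0.148), with r at 0.56 without the 2 farthest animals, 0.52 within stem cell hearts and 0.75 within saline hearts. After adjustment over the 65 relations, the p of Pearson's r with endothelial markers was 0.294 for GJA5 and 0.294 for GJA4. That of GJA1 with cardiomyocyte markers was 0.258, so that none of these connexin relations passed. Among channel genes, KCNIP2 and KCNJ5 ran opposite to fibroblast and scar markers (Pearson r = -0.63 and -0.61, permutation p of 0.0223 and 0.0276). CACNA2D1 ran with cardiomyocyte markers (Pearson r = 0.60, permutation p of 0.0278). Without the 2 farthest animals r was -0.29, -0.43 and 0.38, in this order. The adjusted p was 0.258 for each of them, so that they did not pass either.

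**Figure D4:**
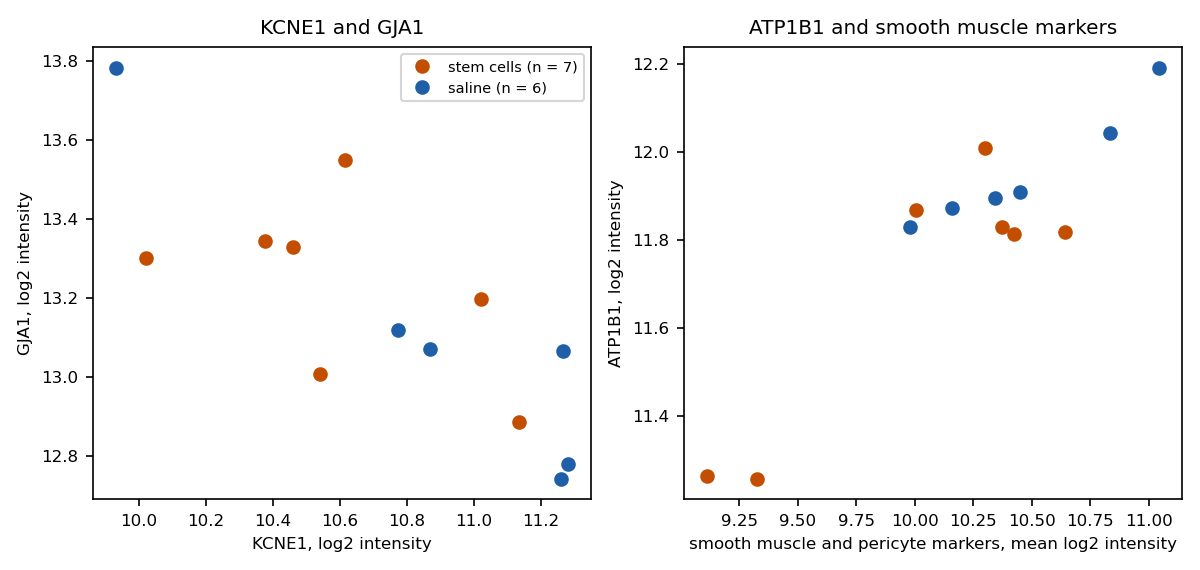
Left, log2 intensity of GJA1 against that of KCNE1, and right, ATP1B1 against the mean log2 intensity of smooth muscle and pericyte markers, 1 point per animal, stem cells (n = 7) and saline (n = 6). In the left panel saline replicate 5 lies at the upper left end, and in the right panel 2 stem cell hearts lie apart at the lower left.

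Genes that work with these channels and pumps went both ways. Of 33 listed partners 16 were tested, 8 higher and 8 lower after stem cells, with a median of -0.042. At an unadjusted p under 0.05, 3 were lower and 1 was higher, against 5.15% of all probe sets lower and 5.4% higher, and 0 passed after adjustment. CALM3, which encodes calmodulin, the calcium sensor bound by many channels, averaged 7.00 ± 0.55 in stem cell hearts and 7.88 ± 0.44 in saline hearts, a difference of -0.88 ± 0.26 (SE; limma adjusted p of 0.393). RANGRF, which helps the cardiac sodium channel reach the membrane, was at -0.62 ± 0.25, and FXYD7, of a family of small regulators of the sodium pump, at -0.57 ± 0.19 (adjusted p of 0.424 and 0.414). SLC8A1, the sodium-calcium exchanger, was the higher one at 1.16 ± 0.52 (adjusted p of 0.458), with 3.96 to 7.41 in stem cell hearts and 3.48 to 5.56 in saline hearts. All 4 overlapped between groups.

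The intercalated disc, the junction in which gap junctions lie, was represented by 10 of 18 listed genes, 5 higher and 5 lower, with a median of 0.043. At an unadjusted p under 0.05, 1 of the 10 was called, near the 10.5% of all probe sets tested. It was CXADR, an adhesion receptor of the disc, at 0.43 ± 0.20 (SE; unadjusted p of 0.0419, limma adjusted p of 0.458). After adjustment 0 genes passed, against 0.0% of all probe sets. TJP1, the scaffold that binds the tail of the GJA1 protein, was at 0.14 ± 0.18, and desmoplakin, DSP, at -0.014 ± 0.17.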

How the data were processed

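The authors deposited linear intensities per probe set for 13 Affymetrix porcine arrays, and the submitters' processing notes name GCRMA. That method corrects background, normalizes between arrays and summarises probes, so that a shift of most genes together is removed. GCRMA's version was not given in the sources used here. After 124 control probe sets were left out, 23999 were put on the log2 scale. Of these 10069 had 1 symbol, 198 several (0 of them with a member prefix) and 13732 none. All 33 member symbols occur in the pig gene table of Sscrofa11.1.

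Probe sets with a mean above 3.36 entered a comparison with limma 3.58.1 under R 4.3.3 (lmFit, eBayes with an intensity trend), with p-values adjusted by Benjamini and Hochberg over 14399 probe sets. The fit was tested on simulated data. Exact permutation tests ran over all 1716 splits and correlations over 100000 permutations. The number of arrays limits the precision.

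Members and gene lists were chosen with earlier results of these data known. Named genes were a fixed list of heart channels, members with an unadjusted p under 0.05, and the genes with the highest signal. Same-numbered animals did not deviate together (1 of 6 pairs with a correlation over 0.1), so numbers were not taken as pairs. Alternatives covered the filter, normalization, variance model, covariates and leaving out each animal.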

Additional observations from a re-analysis of the deposited data

Results flagged for a closer look

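Within groups, the highest or lowest of 7 or 6 animals was set against the others for the 13 tested genes, 26 groups in all, of which chance flags about 1 in 20. A gap larger than expected from Dixon's critical value was found in 3. KCNJ5 in stem cells replicate 6 was at 9.72, above the 8.08 to 8.77 of the other 6 stem cell hearts. GJA1 in saline replicate 5 was at 13.78, above the 12.74 to 13.12 of the other 5 saline hearts. GJA4 in the same animal was at 6.19, above the 5.38 to 5.67 of the other 5.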

How the results depend on the processing

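After adjustment, 0 member genes passed under every alternative run, and over all probe sets 0 passed, with a range of 0 to 1 when 1 animal was left out (1 without saline replicate 5). At an unadjusted p under 0.05 the count of member genes was 1 of 13 with all animals and 3 of 33 with no filter. It was 2 of 13 with the EF1A ratio as a covariate (GJA5 and ATP1B1, without GJA4). Over all probe sets the counts were 1519 of 14399 (10.5%), 2103 of 23999 (8.76%) and 1236, in this order. The count of members ranged from 1 to 3 with 1 animal left out. It was 3 when saline replicate 5 was omitted, as GJA1 and KCNE1 joined, beside 1456 of all probe sets. It was 2 when replicate 7 of the stem cell group was omitted, as ATP1B1 joined, beside 1720 of all probe sets. With the replicate block the count of member genes was 1, again GJA4, at -0.52, so that the block changed no call among the members. Over all probe sets 1370 reached an unadjusted p under 0.05 with the block, against 1519 without it. GJA4 was negative in all 22 alternatives, from -0.57 to -0.37, with an adjusted p of 0.284 to 0.695. The median of the 3 genes classed with the sodium pump moved to -0.238 with the EF1A ratio as a covariate. That value was the one of ATP1B4, while ATP1B1 was at -0.36 and ATP1B3 at 0.017. Some signs turned: with that covariate KCNJ8 was at -0.057 and ATP1B3 at 0.017, and in other probe sets KCNJ8 was at -0.13 and KCNJ5, at 0.21 in its leading one, was at -0.12 in a probe set below the filter (mean 3.01). With 1 animal left out, ATP1B3 ranged from -0.20 to 0.030 and ATP1B4 from -0.14 to 0.077. The cause was not tested. ATP1B4 and KCNMB1 have no value at the 60th percentile filter. Signals near the filter limit what KCNMB1 and ATP1B4 can show.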
